A study of Homo sapiens with 9 samples.

Results

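The genes described here encode amino acid transporters of the plasma membrane, the lysosome and the mitochondrion. They were compared between 3 groups of human embryonic stem cells directed to definitive endoderm, with no undifferentiated sample and no time series. They were chosen by symbol: every SLC1A, SLC7A, SLC36A, SLC38A and SLC43A gene of the count table, together with SLC3A1, SLC3A2, SLC6A6, SLC6A8, SLC6A9, SLC6A15 and SLC25A22. The rule used no measured value and matched 46 of the 19907 genes in the table. One of the 46, SLC7A6OS, is matched only by its symbol and is not a transporter.

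RNA sequencing was performed on the established embryonic stem cell line HUES8, of human origin and of wild-type genotype in all groups. Every group had activin A at 100 ng/mL throughout, with Wnt-3a at 50 ng/mL for the first 2 days, in medium with 0.2% albumin. The DE group (3 libraries) had no inhibitor, the C75 group (3 libraries) had an inhibitor of fatty acid synthase, and the ETO group (3 libraries) had a blocker of fatty acid oxidation. Neither inhibitor dose nor exposure time nor harvest day is stated in the labels. Nor do they say that replicate libraries are separate cultures, so p-values cover the scatter of the libraries alone, and that scatter may be technical. A single cell line was used.

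Library totals were 17379711 to 20812616 counts in DE, 18320778 to 18895819 in C75 and 17743968 to 21510997 in ETO. The labelled cell type was checked against 11 definitive endoderm markers, all of which were expressed. Their summed level was 10225 to 10660 CPM, counts scaled per 1e6 library counts, in DE, 16036 to 16424 CPM in C75 and 5522 to 5638 CPM in ETO. The summed level of 9 pluripotency markers was 2831 to 2961 CPM in DE, 2319 to 2435 CPM in C75 and 3497 to 3585 CPM in ETO. SOX17, a transcription factor that defines endoderm, was at 760 ± 23.7 CPM in DE, 815 ± 43.5 CPM in C75 and 226 ± 7.71 CPM in ETO (mean ± SD, n = 3 here and throughout). POU5F1, which encodes the pluripotency factor OCT4, was at 295 ± 22.1, 61.6 ± 1.98 and 1139 ± 29.3 CPM in the same order. In ETO the POU5F1 level was therefore above that of DE and the SOX17 level below it, although the ETO libraries carry the same cell type label. Not every marker moved this way. LHX1 alone of the endoderm markers was higher in ETO than in DE (102 and 66.7 CPM). LIN28A (1111 and 1550 CPM) and L1TD1 (572 and 660 CPM) alone of the pluripotency markers were lower. LIN28A was the largest part of the pluripotency sum in DE and C75 (1550 and 1351 CPM), and POU5F1 was the largest in ETO. In C75, ZFP42 (59.3 CPM, against 49.0 CPM in DE) and L1TD1 (701 CPM, against 660 CPM in DE) were higher than in DE. CER1 made up most of the endoderm sum in each group, at 7034, 11408 and 3849 CPM in DE, C75 and ETO. The summed level of 7 mesoderm markers was 130 to 135 CPM in DE, 59.2 to 62.2 CPM in C75 and 390 to 406 CPM in ETO, with MSGN1 at 0 in all libraries and FOXF1 at 0 in the C75 libraries. Most of that sum was KDR, at 121, 58.0 and 347 CPM in DE, C75 and ETO. The 6 neural markers summed to 396 to 414, 303 to 318 and 847 to 869 CPM in that order, most of it from NES, which many dividing progenitors express, and SOX1 and NEUROG2 were at 0 in C75. PAX6 of the same list ran the other way, at 26.6 CPM in DE, 44.1 CPM in C75 and 5.78 CPM in ETO. Trophoblast and amnion markers, 6 in number, summed to 34.4 to 38.6, 20.2 to 23.0 and 26.5 to 28.6 CPM in that order, none at 0 in a whole group. Most of that sum was GATA3, at 29.2, 15.1 and 17.8 CPM in DE, C75 and ETO. In ETO against DE, GATA3 and ISL1 fell, GABRP rose (1.93 to 5.43 CPM) and TFAP2A was not called. CDX2 and KRT7, too low to be tested, were higher in ETO (0.281 and 0.657 CPM) than in DE (0.104 CPM each). The part of these marker differences in the transporter results below was not tested. In bulk libraries, fewer cells of a type and less RNA per cell cannot be told apart.

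Amino acids cross membranes on carriers that differ in substrate and in driving force. Light chains of the SLC7 family, such as the leucine carrier SLC7A5 (LAT1) and the cystine carrier SLC7A11 (xCT), reach the cell surface bound to a heavy chain, usually SLC3A2, and exchange one amino acid for another. Sodium-coupled carriers such as SLC38A1 and SLC38A2 load the cell with glutamine and other small neutral amino acids. The exchangers then trade these for leucine and other essential amino acids. Leucine and arginine in the cell are sensed at the lysosome, where SLC38A9 takes part in switching on mTORC1, and shortage of amino acids induces many carriers through the transcription factor ATF4.

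Of the 46 members, 38 passed the filter on low counts and were tested, and 8 were not. SLC1A7, SLC7A13 and SLC38A11 had 0 counts in all 9 libraries. Over the 9 libraries together SLC3A1 had 3 counts, SLC36A3 had 4, SLC7A4 had 6, SLC38A8 had 10 and SLC7A9 had 15. SLC38A4 passed the filter through its ETO libraries alone. Its place among the ETO rises, and among the falls in C75 against ETO, counted below was therefore set by the filter. SLC36A2 passed only with its C75 libraries, having 3 C75, 1 DE and 0 ETO libraries above the filter level. The same limit holds for its place among the rises in C75 against ETO. Mean levels over the 9 libraries were at least 10 CPM for 26 members and at least 1 CPM for 36. The members together held 0.357 ± 0.00410% of all counts in DE, 0.432 ± 0.00813% in C75 and 0.470 ± 0.00542% in ETO.

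Levels of different genes were compared as CPM per kilobase of the deposited gene length. In DE the order was led by SLC7A5 at 257 ± 6.95, SLC3A2 at 97.2 ± 4.50, SLC38A2 at 64.7 ± 0.0154, SLC7A3 at 34.0 ± 1.06, SLC1A5 at 30.4 ± 1.23 and SLC38A1 at 20.8 ± 0.171 CPM per kilobase. Each of these 6 was separated from the next by more than the range of the libraries. SLC6A6, SLC1A1 and SLC38A5 followed at 18.3 ± 0.745, 17.3 ± 0.715 and 16.8 ± 0.532 CPM per kilobase, and the libraries of SLC6A6 overlapped those of SLC1A1, as did those of SLC1A1 and SLC38A5. SLC7A5 and SLC3A2 also led in C75 (428 and 136 CPM per kilobase) and in ETO (286 and 103 CPM per kilobase), and SLC38A2 came next in both. SLC1A1 held rank 8 in DE, rank 5 in C75 at 32.3 CPM per kilobase and rank 10 in ETO at 16.7 CPM per kilobase. SLC7A1, which was not among the 10 highest in DE, reached 20.8 CPM per kilobase and rank 9 in ETO. The plot of levels by rank in DE shows these shifts.

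**Figure D1:**
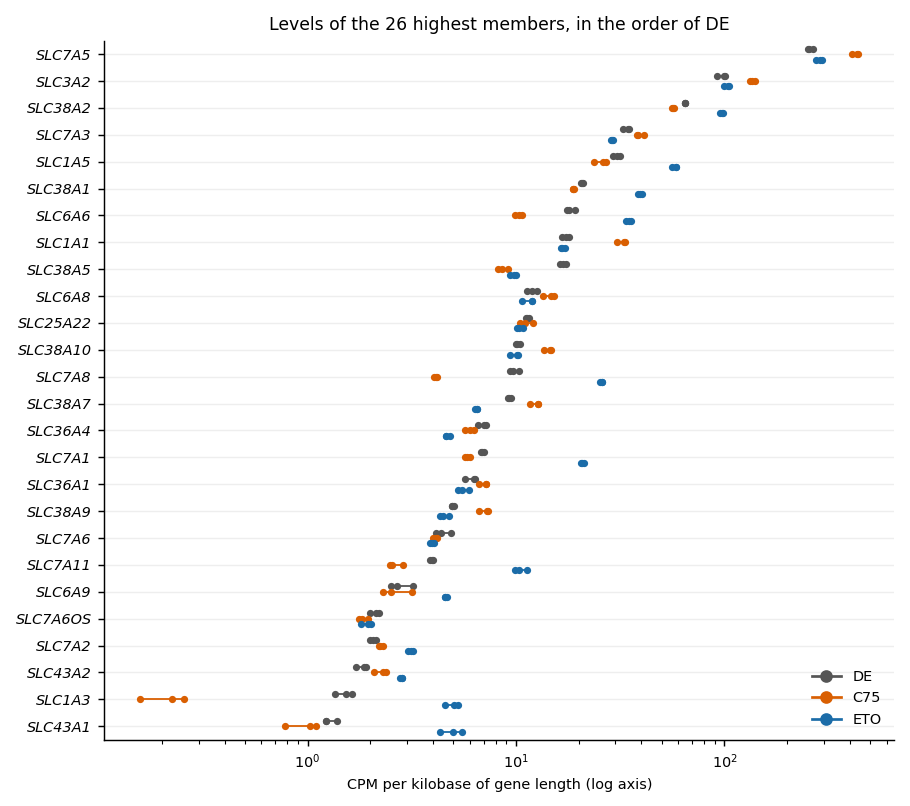
Level of the 26 members with the highest level in DE, as CPM per kilobase of gene length on a log axis, in the order of their level in DE. Points are the 3 libraries of each of the DE, C75 and ETO groups, and lines run from the lowest to the highest library. SLC7A5 and SLC3A2 lead in all 3 groups, and SLC7A8 and SLC1A3 lie well apart between C75 and ETO.

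Summed over all members, the level was 660 ± 5.96 CPM per kilobase in DE, 863 ± 21.4 in C75 and 821 ± 12.1 in ETO. Without SLC7A5 and SLC3A2 the sums were 305 ± 3.99, 299 ± 4.09 and 432 ± 1.83 CPM per kilobase. Thus SLC7A5 and SLC3A2 made up the excess of C75 over DE, whereas in ETO the sum without them also exceeded that of DE. SLC7A5 alone held 39.0 ± 0.715% of the summed level in DE, 49.6 ± 0.628% in C75 and 34.8 ± 0.623% in ETO. These sums are a description and were not tested.

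**Figure D2:**
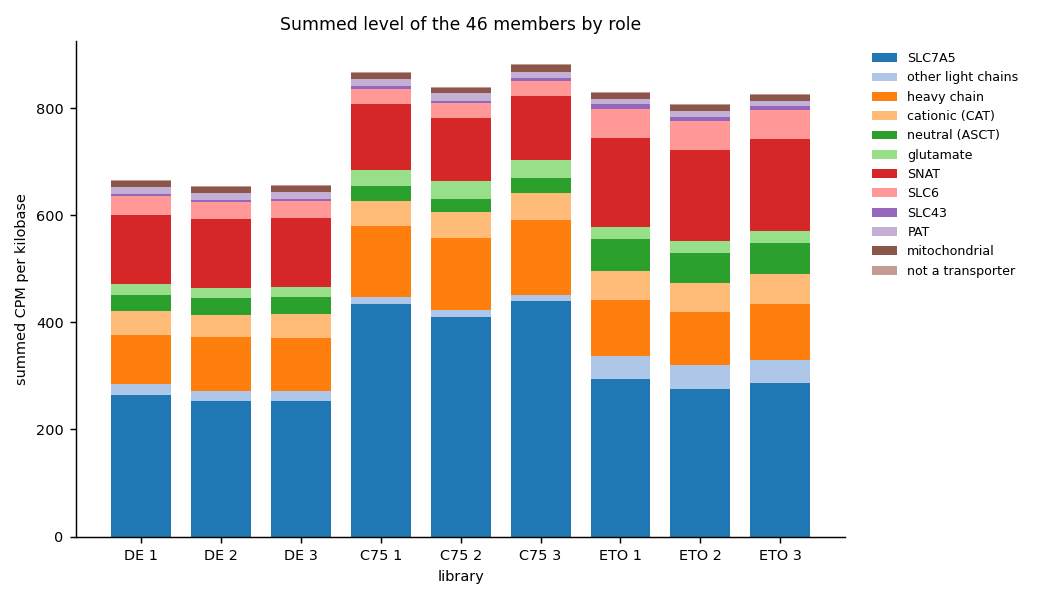
Level of all members summed per library, in CPM per kilobase of gene length, stacked by role, for 3 libraries each of DE, C75 and ETO. The light chain block, mostly SLC7A5, is tallest in C75, and the blocks of the sodium-coupled neutral transporters and the ASCT exchangers are tallest in ETO.

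In C75 against DE, 16 members were called higher and 15 lower, which is 81.6% of the 38 tested, against 63.1% of all 14177 genes tested (31.2% higher and 31.9% lower). Calls rest on edgeR's quasi-likelihood test at an adjusted p below 0.05. Changes of at least 2-fold were called for 2 members upward (5.26%, background 2.68%), SLC7A10 and SLC43A3, and for 4 downward (10.5%, background 6.52%), SLC1A3, SLC6A15, SLC7A8 and SLC38A4. In ETO against DE, 22 members were called higher and 10 lower, together 84.2% against 69.9% of all genes (34.7% higher and 35.3% lower). At least 2-fold rises were called for 11 members in ETO (28.9%, background 9.56%) and at least 2-fold falls for 2 (5.26%, background 4.8%), SLC1A2 and SLC36A2. Most calls in C75 were thus of modest size, with the split between directions close to even, while in ETO more members rose than fell. The count of 2 falls in ETO was 1 under a stricter filter on low counts, in a fit of the 6 libraries alone and without DE replicate 3. The median log2 fold change of the tested members was −0.05 in C75 and 0.47 in ETO, where over all genes it was −0.0046 and −0.0034. Both comparisons share the DE libraries, so their values are given side by side and no overlap between them was tested.

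**Figure D3:**
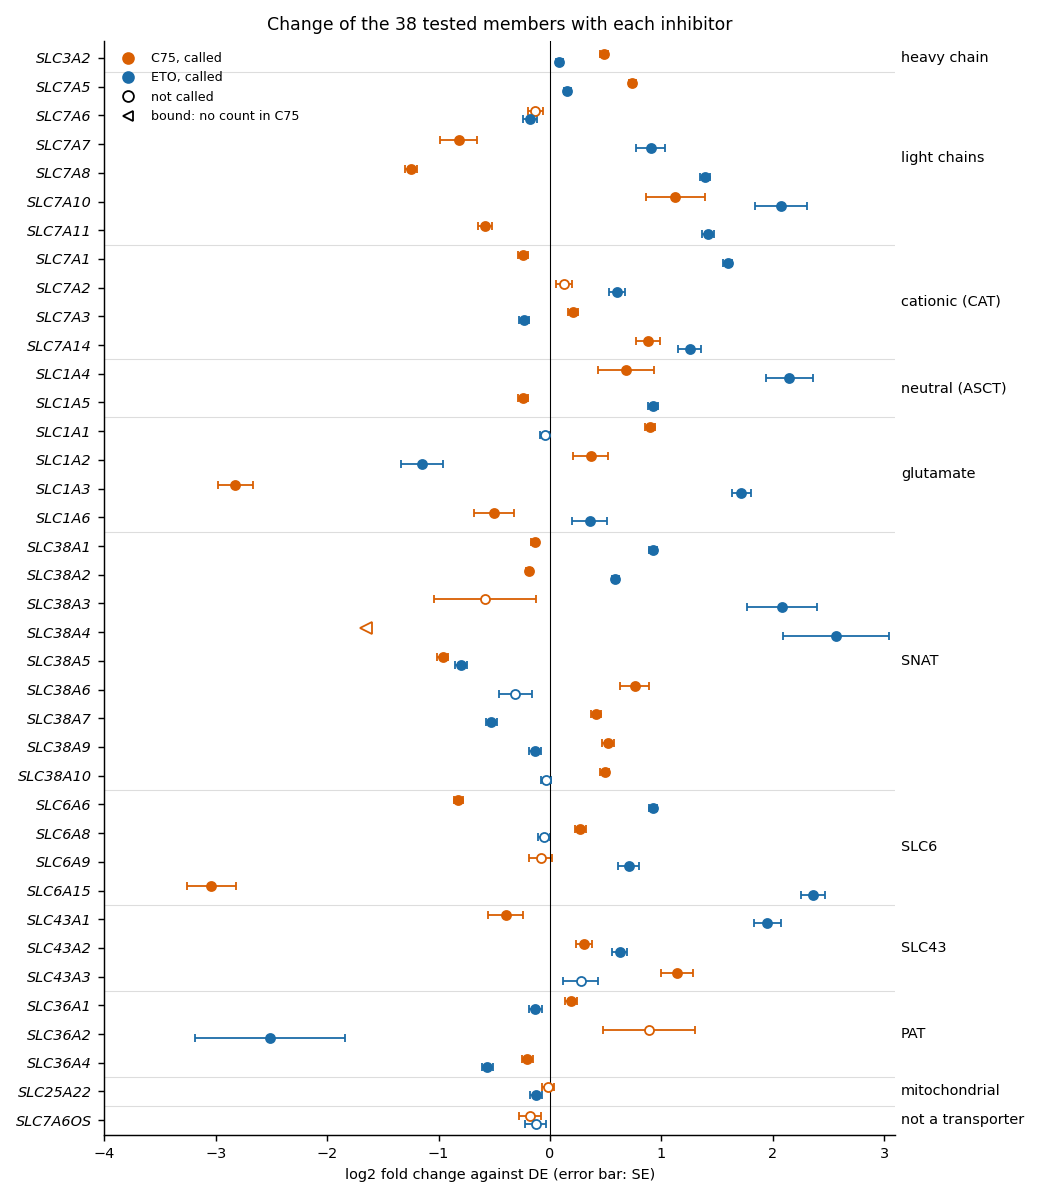
Log2 fold change with SE for the 38 tested members in C75 against DE and in ETO against DE, grouped by role. Filled points passed an adjusted p of 0.05, open points did not, and the triangle for SLC38A4 marks the bound set by 0 counts in C75. The points of SLC1A3, SLC6A15, SLC7A8, SLC7A11 and SLC6A6 lie below 0 for C75 and above 0 for ETO.

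Short sequences around promoter matches are printed here because carriers are textbook targets of ATF4, whose recognition element in its target promoters was searched for by its core letters. RefSeq promoters (GRCh38.p14, 250 bases before to 50 after a start) were found for 35 of the 46 members, 60 promoters in all. The core TGATGNAA was searched on both strands and was present in 6 of the 60 promoters (10%), each of a different member, and in 3.62% of all 35116 promoters. Capitals mark the match. A 60-base window is shown where the match lies before the start, and a 30-base window where it touches or follows it.
SLC1A4, chr2:64989381-64989410, plus strand, match on the opposite strand: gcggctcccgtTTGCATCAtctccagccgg
SLC38A1, chr12:46266502-46266531, minus strand: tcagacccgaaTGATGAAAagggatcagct
SLC7A1, chr13:29595663-29595692, minus strand: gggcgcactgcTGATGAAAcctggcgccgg
SLC3A2, chr11:62881719-62881748, plus strand, match on the opposite strand: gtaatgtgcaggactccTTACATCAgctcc
SLC1A5, chr19:46784878-46784937, minus strand: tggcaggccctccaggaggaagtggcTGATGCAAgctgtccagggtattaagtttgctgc
SLC1A3, chr5:36596342-36596401, plus strand: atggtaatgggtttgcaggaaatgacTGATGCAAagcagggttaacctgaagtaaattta
The matches of SLC1A4 and SLC38A1 span the RefSeq start, that of SLC7A1 begins 8 bases and that of SLC3A2 38 bases after it. The starts of SLC1A4 (64989399), SLC38A1 (46266516) and SLC3A2 (62881699) lie inside the GENCODE release 29 spans. Those spans begin, in the direction of transcription, at 64988477, 46270017 and 62856102. Those of SLC1A5 and SLC1A3 begin at positions −97 and −220 relative to an alternative RefSeq start, which for SLC1A3 lies before the GENCODE release 29 span of the gene. SLC7A11, SLC6A6 and 9 other members had no promoter sequence in the table used.

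The E-box CACGTG, recognised by MYC and related factors as well as by the lysosomal regulator TFEB, was searched in the same way and was present in 10 of the 60 member promoters (16.7%) and in 7.26% of all promoters. It is shown for 4 of the 10 members that hold it, the leucine carriers SLC7A5, SLC7A8 and SLC43A1 and the glutamine exchanger SLC1A5, chosen after the values were seen. The others are SLC1A7, SLC7A7, SLC25A22, SLC36A1 (with a pair of matches), SLC38A5 and SLC38A7. The starts used for SLC7A8 (23154393), SLC1A5 (46787293) and SLC43A1 (57515702) lie inside the GENCODE spans, which end at 23183674, 46788594 and 57515786.
SLC7A5, chr16:87869605-87869664, minus strand: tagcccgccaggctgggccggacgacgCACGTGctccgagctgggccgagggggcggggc
SLC7A8, chr14:23154490-23154549, minus strand: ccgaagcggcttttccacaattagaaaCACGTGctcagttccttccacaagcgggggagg
SLC43A1, chr11:57515782-57515841, minus strand: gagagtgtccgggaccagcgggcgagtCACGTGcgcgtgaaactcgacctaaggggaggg
SLC1A5, chr19:46787311-46787370, minus strand: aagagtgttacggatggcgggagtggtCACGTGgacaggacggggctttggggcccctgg
The antioxidant response element core TGACNNNGC, bound by NRF2, was present in 8 member promoters (13.3%) and in 13.3% of all promoters. It is shown for the heavy chain SLC3A2, 37 bases before the start at 62881699, because the cystine carrier that SLC3A2 pairs with is a known NRF2 target.
SLC3A2, chr11:62881637-62881696, plus strand: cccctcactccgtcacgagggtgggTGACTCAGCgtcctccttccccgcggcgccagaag
All of these are letter matches in a fixed window, with no binding measured.

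SLC7A5, the light chain that brings leucine and other large neutral amino acids into the cell, rose in C75. It was at 1257, 1204 and 1197 CPM in DE, 2061, 1948 and 2086 CPM in C75 and 1396, 1311 and 1362 CPM in ETO. The C75 libraries stood well above the rest, and the ETO libraries stood slightly above DE, without overlap. The rise was 1.67-fold in C75 (log2 fold change 0.74, SE 0.0308, adjusted p = 1.5e-20) and 1.11-fold in ETO (0.15, SE 0.0308, adjusted p = 4.2e-05). Over the alternatives the log2 fold change was 0.63 to 0.76 in C75 and 0.13 to 0.35 in ETO. The gene lies on GRCh38 chromosome 16, from 87830023 to 87869488 on the minus strand, per GENCODE release 29, the source of all positions below.

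SLC3A2, the CD98 heavy chain, lies on chromosome 11 from 62856102 to 62888875 on the plus strand. It was at 477, 519 and 515 CPM in DE, 689, 700 and 727 CPM in C75 and 539, 516 and 545 CPM in ETO. Like its main partner SLC7A5 it was highest in C75, at 1.40-fold the DE level (0.49, SE 0.0336, adjusted p = 1.4e-14). The ETO libraries overlapped DE, and the 0.08 log2 difference (adjusted p = 0.028) was no longer called with no filter on low counts (0.07, adjusted p = 0.055) or without DE replicate 1 (0.04), ETO replicate 1 (0.07) or ETO replicate 3 (0.07). The summed light chains stood at 2.85 ± 0.214 times the SLC3A2 level per kilobase in DE, 3.23 ± 0.115 times in C75 and 3.20 ± 0.0560 times in ETO.

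The remaining light chains moved otherwise. SLC7A8, the LAT2 chain that carries small as well as large neutral amino acids, was at 57.9, 55.8 and 61.7 CPM in DE, 24.9, 24.8 and 24.2 CPM in C75 and 155, 151 and 154 CPM in ETO. The 3 groups were wide apart, with C75 lowest and ETO highest. SLC7A8 (chromosome 14, 23125295 to 23183674, minus strand) fell 2.38-fold in C75 (−1.25, SE 0.0530, adjusted p = 2.2e-20) and rose 2.62-fold in ETO (1.39, SE 0.0421, adjusted p = 4.2e-25). Per kilobase its level was 3.80 ± 0.246% of that of SLC7A5 in DE, 0.961 ± 0.0457% in C75 and 8.96 ± 0.153% in ETO, so that the light chain pool of ETO was the more mixed. SLC7A5 made up 93.0 ± 0.239% of the light chain level in DE, 97.2 ± 0.161% in C75 and 86.9 ± 0.424% in ETO.

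SLC7A11, the cystine and glutamate exchanger that supplies cysteine for glutathione, was at 38.2, 37.2 and 38.6 CPM in DE, 23.9, 27.6 and 24.6 CPM in C75 and 100, 109 and 95.3 CPM in ETO. Its groups did not overlap. SLC7A11 (chromosome 4, 138164097 to 138242349, minus strand) fell 1.5-fold in C75 (−0.58, SE 0.0642, adjusted p = 1.3e-09) and rose 2.67-fold in ETO (1.42, SE 0.0535, adjusted p = 2.3e-22). The sources used here do not give the use of strand in counting, and an antisense gene, SLC7A11-AS1, shares 9.0% of its exonic bases. The light chains SLC7A7 and SLC7A10, both at low levels, were called in both comparisons. SLC7A7, the y+LAT1 chain for cationic and neutral amino acids, was at 2.47 to 3.58 CPM in C75, 4.28 to 6.32 CPM in DE and 9.45 to 10.3 CPM in ETO. SLC7A10, the Asc-1 chain for glycine, serine and alanine, was at 0.686 to 0.952 CPM in DE and rose 2.18-fold in C75 (adjusted p = 4.4e-04) and 4.21-fold in ETO (adjusted p = 1.6e-09). SLC7A6, the y+LAT2 chain, was at 31.3 to 37.2 CPM in DE, 30.3 to 31.6 CPM in C75 and 29.3 to 30.6 CPM in ETO. Its fall of 0.18 log2 in ETO (adjusted p = 0.013) was not called without DE replicate 1 (−0.11, adjusted p = 0.16), and its C75 difference (−0.13, adjusted p = 0.078) was called without DE replicate 2 (−0.19) and with upper-quartile scaling (−0.18). SLC7A6 shares 44.4% of its exonic bases with SLC7A6OS on the opposite strand, so its reads are uncertain, and SLC7A6OS itself passed in neither comparison, except in C75 with upper-quartile scaling (−0.23, adjusted p = 0.042). Of the 6 light chains tested, 2 rose and 3 fell in C75, and 5 rose and 1 fell in ETO. Of all genes, 63.1% were called in C75 and 69.9% in ETO, and these shares are also the background of the class counts that follow, so most of a small class being called is no result about it.

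**Figure D4:**
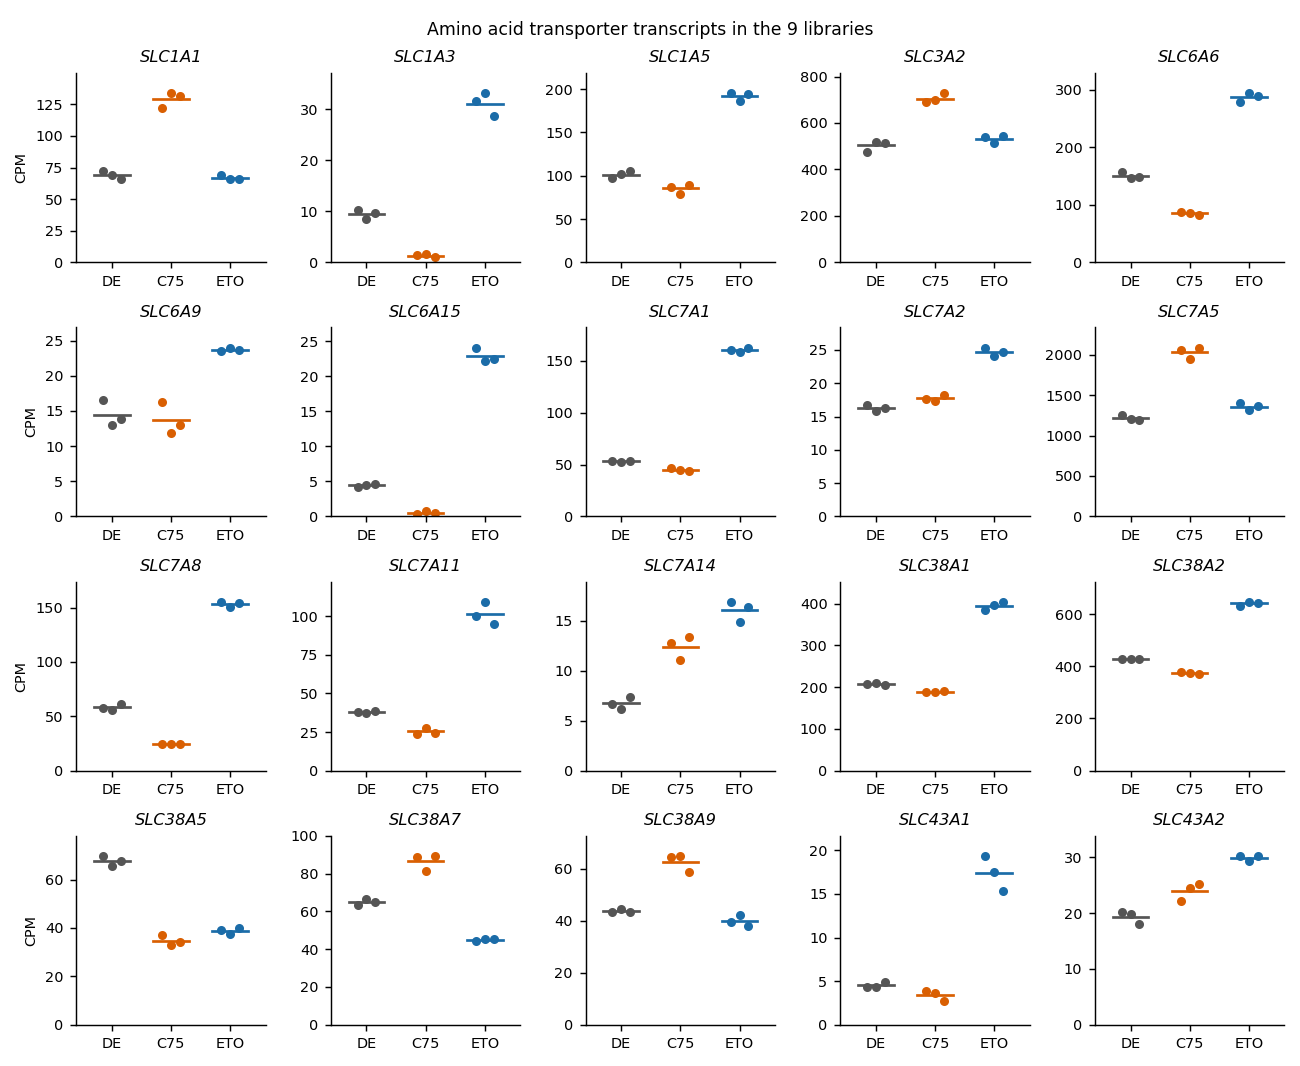
CPM in each of the 3 DE, 3 C75 and 3 ETO libraries (points) with the group mean (line) for the 17 members chosen by level and fold and for SLC3A2, SLC6A15 and SLC43A1, which were added after their values were seen. Each panel has its own axis. C75 is the highest group for SLC7A5, SLC3A2 and SLC1A1, and ETO is the highest for SLC7A1, SLC7A8, SLC7A11, SLC1A3, SLC1A5, SLC6A6 and SLC6A15.

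Among the cationic amino acid transporters, which carry arginine and lysine, the ubiquitous SLC7A1 rose in ETO. SLC7A1 (chromosome 13, 29509410 to 29595688, minus strand) was at 53.8, 52.1 and 53.1 CPM in DE, 46.3, 44.7 and 43.7 CPM in C75 and 160, 158 and 163 CPM in ETO. The ETO libraries stood 3.02-fold above DE (1.6, SE 0.0407, adjusted p = 2.7e-27), and the C75 libraries lay 1.18-fold below it without overlap (−0.24, SE 0.0468, adjusted p = 3.7e-05). SLC7A3, a relative on chromosome X (70925582 to 70931125, minus strand), went the other way at 78.5, 74.2 and 78.1 CPM in DE, 86.3, 87.1 and 92.9 CPM in C75 and 65.5, 64.7 and 66.0 CPM in ETO. These groups did not overlap, but the changes were small, 1.15-fold up in C75 (adjusted p = 1.1e-04) and 1.18-fold down in ETO (adjusted p = 1.7e-05). In ETO the levels of the arginine carriers SLC7A1 and SLC7A3 thus drew closer, to 20.8 and 28.9 CPM per kilobase, from 6.89 and 34.0 in DE.

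SLC7A2, an inducible cationic carrier, was at 16.8, 15.8 and 16.2 CPM in DE, 17.7, 17.4 and 18.2 CPM in C75 and 25.3, 24.1 and 24.7 CPM in ETO. It was 1.52-fold higher in ETO (0.60, adjusted p = 4.4e-09), with a C75 difference of 0.13 (adjusted p = 0.15) that was called after correction for GC content and gene length (0.19, adjusted p = 0.023). SLC7A14, assigned to lysosomes, was at 6.65, 6.17 and 7.35 CPM in DE, 12.8, 11.1 and 13.3 CPM in C75 and 16.9, 14.9 and 16.4 CPM in ETO. Both inhibitor groups stood above DE in each library, 1.84-fold in C75 (adjusted p = 9.5e-09) and 2.39-fold in ETO (adjusted p = 4.4e-13). Of the 4 tested carriers of this class, 2 rose and 1 fell in C75, and 3 rose and 1 fell in ETO.

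SLC1A5, the ASCT2 exchanger that is a main route of glutamine into dividing cells, was at 97.1, 102 and 105 CPM in DE, 87.4, 79.1 and 89.6 CPM in C75 and 195, 186 and 195 CPM in ETO. Its 3 groups did not overlap, with ETO highest and C75 lowest. SLC1A5 (chromosome 19, 46774883 to 46788594, minus strand) rose 1.90-fold in ETO (0.92, adjusted p = 3.7e-20) and fell 1.19-fold in C75 (−0.25, adjusted p = 1.4e-05). An antisense gene covers 23.4% of its exonic bases. SLC1A4, the serine and alanine exchanger ASCT1, was at 1.01 to 1.28 CPM in DE, 1.6 to 2.31 CPM in C75 and 4.63 to 5.40 CPM in ETO. It rose 4.43-fold in ETO (adjusted p = 4.9e-11). The C75 difference of 0.68 (adjusted p = 0.018) was not called without DE replicate 3 (0.58, adjusted p = 0.072) or C75 replicate 1 (0.48, adjusted p = 0.14).

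The high-affinity glutamate transporters, which move glutamate and aspartate inward with sodium, split by member. SLC1A1 (EAAT3; chromosome 9, 4490444 to 4587469, plus strand) was at 71.9, 69.3 and 66.2 CPM in DE, 122, 134 and 131 CPM in C75 and 68.7, 66.1 and 65.9 CPM in ETO. Only its C75 libraries stood apart, 1.86-fold above DE (0.90, SE 0.0437, adjusted p = 1e-18), while ETO overlapped DE (−0.05, adjusted p = 0.36). SLC1A3 (EAAT1; chromosome 5, 36606355 to 36688334, plus strand) was at 10.2, 8.46 and 9.63 CPM in DE, 1.41, 1.6 and 0.989 CPM in C75 and 31.6, 33.1 and 28.7 CPM in ETO. It was thus lowest where SLC1A1 was highest, falling 7.09-fold in C75 (−2.83, SE 0.159, adjusted p = 5.5e-17) and rising 3.29-fold in ETO (1.72, SE 0.0886, adjusted p = 1.9e-18).

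The other members of this class were rarer. SLC1A2 (EAAT2) was at 4.40 to 6.45 CPM in DE, 6.26 to 7.10 CPM in C75 and 1.81 to 2.97 CPM in ETO, a 2.22-fold fall in ETO (−1.15, adjusted p = 1.5e-06). Its C75 difference of 0.36 (adjusted p = 0.046) overlapped DE and was not called in 8 alternatives, at 0.30 to 0.39 without any one of the C75 replicates, 0.28 without DE replicate 1 and 0.27 without DE replicate 2. SLC1A6 (EAAT4) was at 3.71 to 5.65 CPM in DE, 3.08 to 3.38 CPM in C75 and 4.87 to 6.33 CPM in ETO. For SLC1A6 the difference of −0.50 in C75 (adjusted p = 0.014) was not called without DE replicate 1 (−0.30). That of 0.36 in ETO (adjusted p = 0.046) was not called without C75 replicate 1 (0.35), DE replicate 2 (0.25) or 3 (0.29) or ETO replicate 1 (0.30) or 3 (0.29), in the fit of 6 libraries (0.35), after the GC and length correction (0.32) or by DESeq2 (adjusted p = 0.10). Among the 4 tested glutamate transporters, 2 rose and 2 fell in C75, and 2 rose and 1 fell in ETO.

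The sodium-coupled neutral transporters SLC38A1 and SLC38A2 are neighbours on chromosome 12, from 46183063 to 46270017 and from 46358189 to 46372867, both on the minus strand. SLC38A2, the amino acid-inducible SNAT2, was at 427, 427 and 427 CPM in DE, 379, 375 and 369 CPM in C75 and 632, 647 and 643 CPM in ETO. SLC38A1 (SNAT1) was at 208, 210 and 206 CPM in DE, 188, 188 and 190 CPM in C75 and 384, 396 and 404 CPM in ETO. Replicates of both were tight, and ETO was the highest group for each, by 1.5-fold over DE for SLC38A2 (0.59, adjusted p = 8.6e-19) and 1.90-fold for SLC38A1 (0.92, adjusted p = 2.4e-23). In C75 the levels lay 1.14-fold (−0.19, adjusted p = 1.6e-06) and 1.10-fold (−0.14, adjusted p = 5.1e-04) below DE. The C75 fall of SLC38A1 was not called after correction for GC content and gene length (−0.06, adjusted p = 0.085).

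SLC38A5 (SNAT5), which takes up glutamine, serine and glycine with sodium in exchange for protons, fell in both inhibitor groups. It lies on chromosome X from 48458537 to 48470256 on the minus strand and was at 69.8, 65.5 and 67.5 CPM in DE, 36.9, 32.8 and 34.3 CPM in C75 and 39.2, 37.6 and 40.0 CPM in ETO. DE was clearly the highest, and C75 was just under ETO. The fall was 1.95-fold in C75 (−0.97, adjusted p = 4e-17) and 1.74-fold in ETO (−0.80, adjusted p = 1.3e-15).

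SLC38A7 and SLC38A9, both lysosomal, were highest in C75. SLC38A7 (SNAT7; chromosome 16, 58665109 to 58685104, minus strand), which exports glutamine from the lysosome, was at 63.7, 66.5 and 64.8 CPM in DE, 88.7, 81.5 and 89.4 CPM in C75 and 44.4, 45.4 and 45.4 CPM in ETO. It rose 1.33-fold in C75 (0.41, adjusted p = 1.1e-09) and fell 1.44-fold in ETO (−0.53, adjusted p = 9.1e-12). SLC38A9 (chromosome 5, 55625845 to 55773194, minus strand), the arginine sensor of the lysosome, was at 43.5, 44.3 and 43.3 CPM in DE, 64.4, 64.9 and 58.8 CPM in C75 and 39.6, 42.0 and 38 CPM in ETO. Its C75 libraries stood apart, 1.43-fold over DE (0.52, adjusted p = 1.8e-10). Its ETO difference was small (−0.13, adjusted p = 0.032), and was not called without DE replicate 2 (−0.11) or ETO replicate 1 (−0.13) or 3 (−0.10), with upper-quartile scaling (−0.11, adjusted p = 0.068) or by DESeq2 (−0.12, adjusted p = 0.097).

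The rest of the SLC38 family ranged from abundant to nearly absent. SLC38A10 was at 77.2 to 80.4 CPM in DE and 105 to 114 CPM in C75, a 1.40-fold rise (adjusted p = 7.5e-12), with 72.3 to 78.8 CPM in ETO. The ETO difference of SLC38A10 was −0.04 (adjusted p = 0.43), and 0.16 (adjusted p = 3.8e-04) after correction for GC content and gene length. SLC38A6 was at 4.40 to 5.98 CPM in DE, 8.79 to 10.2 CPM in C75 and 3.85 to 4.87 CPM in ETO, and rose 1.69-fold in C75 (adjusted p = 7e-06). The SLC38A6 difference in ETO (−0.31, adjusted p = 0.058) was called without DE replicate 2 (−0.42) or ETO replicate 2 (−0.39), with no filter (−0.32) and after the GC and length correction (−0.39). SLC38A3 (SNAT3), a glutamine carrier of liver and kidney, was at 0.514 to 0.617 CPM in DE, 0.220 to 0.563 CPM in C75 and 1.73 to 2.91 CPM in ETO, where it rose 4.23-fold (adjusted p = 5.1e-07). SLC38A4 (SNAT4), another liver carrier, had 2, 5 and 3 counts in DE, 0 in each C75 library and 25, 19 and 20 counts in ETO. Against a floor of 3 counts over the group it was at least 3.14-fold lower in C75 than in DE, and its ETO libraries alone brought it past the filter, so no test is given for its level in ETO. Over the 9 tested members of the family, 4 rose and 4 fell in C75, and 4 rose and 3 fell in ETO.

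SLC6A6, the sodium-coupled taurine transporter (chromosome 3, 14402576 to 14489349, plus strand), was at 158, 146 and 149 CPM in DE, 88.3, 85.6 and 81.4 CPM in C75 and 278, 293 and 289 CPM in ETO. The groups were widely separated, with C75 lowest and ETO highest. It fell 1.77-fold in C75 (−0.83, adjusted p = 1.6e-18) and rose 1.90-fold in ETO (0.93, adjusted p = 1.3e-21). SLC6A15, a sodium-coupled carrier of branched-chain amino acids and proline on chromosome 12 (84859488 to 84913615, minus strand), is given in full because of its fold, chosen after its values were seen. It was at 4.27, 4.51 and 4.6 CPM in DE, 0.338, 0.770 and 0.494 CPM in C75 and 24.1, 22.3 and 22.5 CPM in ETO, which rests on 256, 29 and 1382 counts per group. It was the member with the largest C75 fall among those with counts in every group, 8.23-fold (−3.04, adjusted p = 5.5e-14), and it rose 5.15-fold in ETO (2.36, adjusted p = 4.5e-20).

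SLC6A9, the glycine transporter GLYT1 (chromosome 1, 43991500 to 44031467, minus strand), was at 16.6, 13.0 and 13.8 CPM in DE, 16.3, 11.9 and 13.0 CPM in C75 and 23.5, 24.0 and 23.7 CPM in ETO. The C75 libraries overlapped DE (−0.09, adjusted p = 0.47, and −0.24, adjusted p = 0.046, without C75 replicate 1), and those of ETO lay 1.63-fold above it (0.71, adjusted p = 2.8e-08). SLC6A8, the creatine transporter, was at 62.4 to 69.5 CPM in DE, 74.4 to 83.8 CPM in C75 (0.27, adjusted p = 2.6e-05) and 58.8 to 65.9 CPM in ETO (−0.05, adjusted p = 0.36, and 0.14, adjusted p = 0.0052, after the GC and length correction). Part of its sequence recurs in the pseudogene SLC6A10P, so a share of its reads is uncertain. Of these 4 SLC6 carriers, 1 rose and 2 fell in C75, and 3 rose in ETO.

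SLC43A1 and SLC43A2 carry large neutral amino acids without coupling to ions. SLC43A1 (LAT3) was at 4.32, 4.34 and 4.87 CPM in DE, 3.89, 3.63 and 2.75 CPM in C75 and 19.3, 17.5 and 15.3 CPM in ETO, a 3.87-fold rise in ETO (1.95, adjusted p = 2.3e-16). Its C75 fall (−0.40, adjusted p = 0.028) was not called without DE replicate 3 (−0.36), without C75 replicate 3 (−0.28) or by DESeq2 (adjusted p = 0.051). SLC43A2 (LAT4; chromosome 17, 1569267 to 1628886, minus strand) was at 20.2, 19.8 and 18.1 CPM in DE, 22.1, 24.4 and 25.2 CPM in C75 and 30.2, 29.3 and 30.2 CPM in ETO. It was higher than DE in each inhibitor library, by 1.23-fold in C75 (adjusted p = 5.8e-04) and 1.54-fold in ETO (adjusted p = 1.2e-09). SLC43A3, which transports purine nucleobases rather than amino acids, was at 3.43 to 4.92 CPM in DE, 7.83 to 9.30 CPM in C75 and 4.50 to 5.02 CPM in ETO. It rose 2.21-fold in C75 (adjusted p = 1.8e-08). Its ETO difference of 0.27 (adjusted p = 0.11) was called without DE replicate 3 (0.45) and after the GC and length correction (0.35). Of its exonic bases, 29.9% lie in another gene of the same strand. All 3 SLC43 genes were called in C75, 2 higher and 1 lower, and 2 were called higher in ETO.

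Of the 3 SLC36 carriers tested, 1 rose and 1 fell in C75, and 3 fell in ETO. SLC36A4 was at 63.8 to 69.9 CPM in DE, 55.1 to 61.1 CPM in C75 and 44.7 to 46.9 CPM in ETO. It fell 1.48-fold in ETO (−0.56, adjusted p = 5.6e-12), and its C75 fall (−0.21, adjusted p = 5.4e-04) was not called after correction for GC content and gene length (−0.07, adjusted p = 0.19). SLC36A1, which exports small amino acids from lysosomes, was at 39.9 to 44.5 CPM in DE, 46.2 to 50.0 CPM in C75 (0.19, adjusted p = 0.0052) and 36.8 to 41.7 CPM in ETO (−0.13, adjusted p = 0.044). The C75 value was not called without DE replicate 3 (0.12). The ETO value overlapped DE and was not called without DE replicate 1 (−0.11) or 2 (−0.09), without ETO replicate 1 (−0.12) or 3 (−0.09), or in 4 other settings, DESeq2 among them (−0.12, adjusted p = 0.12). SLC36A2, a glycine and proline carrier, had 29 counts over the DE group, 51 in C75 and 5 in ETO, a 5.71-fold fall in ETO (adjusted p = 0.0013). It passed the filter only with its C75 libraries, the group where it was highest. Its C75 difference from DE was 0.89, for which no test is given because of that filter limit. SLC25A22, a mitochondrial glutamate carrier, was at 51.7 to 53.8 CPM in DE, 48.5 to 55.8 CPM in C75 (−0.02, adjusted p = 0.74, and −0.14, adjusted p = 0.013, after the GC and length correction) and 46.9 to 50.0 CPM in ETO. Its ETO difference of −0.13 (adjusted p = 0.034) was not called without DE replicate 1 (−0.11) or 2 (−0.12) or ETO replicate 1 (−0.10) or 2 (−0.12), nor with 2 other scalings or DESeq2, and turned to 0.12 (adjusted p = 0.024) after correction for GC content and gene length.

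Set directly against ETO, C75 had 14 members called higher and 21 lower, 92.1% of the 38 tested, where 79.2% of all genes were called (39.9% higher and 39.2% lower). Falls of at least 2-fold were called for 13 members (34.2%, background 14.9%) and rises of that size for 3 (7.89%, background 8.84%). SLC38A4 among the falls and SLC36A2 among the rises passed the filter only through the group where each was high, so the filter set their places. SLC6A15 differed by 42.4-fold (−5.40, adjusted p = 1.2e-25), SLC1A3 by 23.3-fold (−4.54, adjusted p = 2.5e-26) and SLC7A8 by 6.23-fold (−2.64, adjusted p = 4e-32), all lower in C75. The arginine, taurine and cystine carriers SLC7A1, SLC6A6 and SLC7A11 were lower in C75 by 3.57-fold, 3.37-fold and 4.0-fold. In the other direction SLC1A1 was 1.93-fold higher in C75 (adjusted p = 3.3e-20), SLC38A7 1.92-fold (adjusted p = 3.7e-19), SLC38A9 1.57-fold (adjusted p = 2.4e-13) and SLC7A5 1.5-fold (adjusted p = 1.6e-18). The size for SLC7A5 depended on the processing, from 0.27 to 0.60 log2 over 18 alternatives (0.58 in the main fit). For SLC3A2 it went from 0.17 to 0.42 (0.40 in the main fit), and both were called in each alternative. SLC36A2 was 10.6-fold higher in C75, on 51 counts over the C75 group and 5 over ETO. Because its C75 libraries brought it past the filter, no test is given for that difference. The median over the tested members was −0.35 on the log2 scale, against 0.011 over all genes.

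By class, the 4 tested SLC6 carriers were all called, 3 lower and 1 higher in C75 than in ETO, the higher one being SLC6A8 (0.33), which was not called after correction for GC content and gene length (0.02, adjusted p = 0.62). The glutamine exchanger SLC1A5 (2.25-fold) and the serine exchanger SLC1A4 (2.76-fold), the ASCT pair, were lower in C75. Of all genes, 79.2% were called in this comparison. Of the 6 light chains, 4 were lower and 1 higher, and the 3 tested SLC36 carriers were all higher in C75, SLC36A2 with the filter limit given above. The summed level of the 11 sodium-coupled neutral transporters was 128 ± 0.596 CPM per kilobase in DE, 120 ± 1.75 in C75 and 169 ± 2.08 in ETO, and that of the ASCT exchangers was 30.6 ± 1.21, 25.9 ± 1.70 and 58.4 ± 1.46. Glutamate transporters summed to 19.6 ± 0.851, 33.2 ± 1.52 and 22.6 ± 0.561 CPM per kilobase, the C75 sum being mostly SLC1A1.

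Genes that sense amino acids at the lysosome and control mTORC1 were counted beside the carriers. Of 31 tested, 16 rose and 5 fell in C75 (67.7% called, background 63.1%), and 8 rose and 15 fell in ETO (74.2% called, background 69.9%). The share called in either direction was thus near that of all genes. By direction, 51.6% rose and 16.1% fell in C75 (background 31.2% and 31.9%), and 25.8% rose and 48.4% fell in ETO (background 34.7% and 35.3%). RRAGD and SESN3, given below, ran against the more frequent direction in both comparisons. RRAGC, a Rag GTPase that recruits mTORC1 to the lysosome, was at 40.7 ± 3.09 CPM in DE, 57.1 ± 2.14 in C75 and 27.8 ± 1.15 in ETO (C75 0.49, adjusted p = 3.3e-09, and ETO −0.54, adjusted p = 1.3e-09). RRAGD, which can take the place of RRAGC, was at 4.12 ± 0.353, 1.55 ± 0.313 and 12.1 ± 0.870 CPM, the reverse order (C75 −1.40, adjusted p = 5.3e-08, and ETO 1.56, adjusted p = 5.8e-13). SESN3, a sestrin that restrains mTORC1, had the order of RRAGD, with 15.2 ± 0.554 CPM in DE, 9.67 ± 1.25 in C75 and 30.8 ± 1.40 in ETO. RPTOR, the raptor subunit of mTORC1, rose by 0.42 in C75 (adjusted p = 1.1e-08), with an ETO difference of 0.03 (adjusted p = 0.60).

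Of 16 tested amino acid carriers outside the symbol rule, 8 rose and 5 fell in C75 (50% and 31.2%, background 31.2% and 31.9%). In ETO 6 rose and 6 fell (37.5% each, background 34.7% and 35.3%), which is about the background. SLC6A20, a proline carrier, was at 6.69 ± 0.126 CPM in DE, 12.4 ± 0.621 in C75 and 1.77 ± 0.244 in ETO. SLC25A18, a mitochondrial glutamate carrier related to SLC25A22, rose 3.17-fold in C75 (1.66, adjusted p = 2.6e-09), from 1.98 ± 0.529 CPM to 6.30 ± 0.313 CPM. CTNS, the lysosomal cystine exporter, rose by 0.52 in C75 (adjusted p = 4.5e-08) and fell by 0.32 in ETO (adjusted p = 2e-04). SLC25A29, a mitochondrial carrier of basic amino acids, was at 260 ± 5.81 CPM in DE, 232 ± 7.53 in C75 and 153 ± 5.76 in ETO, a fall of 0.77 in ETO (adjusted p = 1.4e-19).

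The list of amino acid response genes outside transport held 16 genes, all tested. In C75 5 rose and 7 fell (31.2% and 43.8%, background 31.2% and 31.9%), and in ETO 12 rose and 1 fell (75% and 6.25%, background 34.7% and 35.3%). ASNS, asparagine synthetase, was at 56.6, 62.3 and 67.4 CPM in DE, 25.4, 29.2 and 27.8 CPM in C75 and 222, 230 and 217 CPM in ETO. Its fold was 2.26 down in C75 (−1.18, adjusted p = 3.5e-18) and 3.60 up in ETO (1.85, adjusted p = 2.7e-27). The serine synthesis enzymes PHGDH and PSAT1 and the secreted factor STC2 were likewise lowest in C75 and highest in ETO, PHGDH at 133 ± 9.99, 67.6 ± 2.41 and 349 ± 8.96 CPM, PSAT1 at 115 ± 5.14, 83.7 ± 2.73 and 364 ± 3.58 CPM, and STC2 at 15.1 ± 1.58, 5.95 ± 0.964 and 66.6 ± 2.11 CPM in DE, C75 and ETO. ATF4, given because it is the transcription factor named above, did not share that order, with 427 ± 12.2 CPM in DE, 506 ± 7.43 in C75 and 464 ± 4.44 in ETO (C75 0.24, adjusted p = 2.1e-08, and ETO 0.12, adjusted p = 9.8e-04). ATF4 is controlled mainly in translation, which these libraries do not measure, and its part in these differences was not tested. ATF3, DDIT3, CEBPB, TRIB3, PYCR1, ALDH18A1 and GPT2 of the list did not share that order either. In DE, C75 and ETO, ATF3 was at 64.1 ± 2.05, 66.3 ± 1.36 and 37.7 ± 0.887 CPM, and DDIT3 at 5.25 ± 0.451, 9.59 ± 1.16 and 4.64 ± 0.401 CPM. CEBPB was at 28.2, 33.8 and 30.6 CPM in the same order, TRIB3 at 7.33, 11.3 and 10.3 CPM, and PYCR1 at 110, 128 and 107 CPM. ALDH18A1 (91.0, 95.7 and 101 CPM) and GPT2 (80.9, 85.5 and 104 CPM) were highest in ETO but lowest in DE. Against ETO directly, 4 genes of this list were higher and 9 lower in C75 (25% and 56.2%, background 39.9% and 39.2%). After correction for GC content and gene length, 2 in place of 4 were higher.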

How the data were processed

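The file deposited by the authors is 1 table of raw counts, with genes by symbol, 9 library columns and a gene length, and no value was changed before use. HISAT2 2.1.0, featureCounts 1.6.4 and hg38 (GRCh38) are named in the submitters' processing notes without a role. For the strand setting, the treatment of reads shared between genes and the annotation, the entry is: not given in the sources used here. Of the 19907 symbols, 19875 had a length equal to their merged exons in GENCODE release 29, the source of positions.

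Counts were tested with edgeR 4.0.16 in R 4.3.3 (limma 3.58.1): filterByExpr by group left 14177 genes, libraries were scaled by TMM, and a quasi-likelihood test with group as the only term was fitted on all 9 libraries. Adjusted p-values are Benjamini-Hochberg values across all genes tested, and SE come from the F statistics. CPM use the TMM-scaled library sizes. Scripts were tested on simulated data. Library totals of 17379711 to 21510997 counts leave members under 1 CPM with few counts, which limits their precision.

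Members and gene lists were chosen with earlier results of these data known. Values in each library are given for members with a mean of at least 10 CPM that were called with at least a 1.5-fold change in any comparison (17 members). From each other list, up to 4 genes with the smallest p in a comparison could be named. ATF4, ATF3, DDIT3, CEBPB, TRIB3, PYCR1, ALDH18A1, GPT2 and stage markers were named outside that rule. Alternatives were DESeq2 1.42.0, other scalings and filters, a fit of 6 libraries, a replicate block, a correction for GC content and length, and leaving out each library.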

Additional observations from a re-analysis of the deposited data

How the results depend on the processing

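The counts of members called higher or lower stayed within 1.5 times in the alternatives run, except the falls of at least 2-fold in ETO against DE: 2 members became 1 with the stricter filter on low counts, 1 in the fit of 6 libraries, and 1 to 2 when a library was left out. Amino acid response genes higher in C75 than in ETO went from 4 to 2 with the correction for GC content and gene length, and to 2 with that correction and the replicate block, a combination added after seeing the data. With the GC and length correction, alone or with the block, 4 differences changed sign and passed the test: SLC6A8 (0.14 and 0.14), SLC25A22 (0.12 and 0.12) and SLC38A10 (0.16 and 0.16) in ETO against DE, and SLC25A22 in C75 against ETO (−0.26 and −0.26). The cause was not tested. When each library was left out in turn, 14 to 16 members were called higher in C75 against DE and 20 to 22 in ETO against DE, and 14 to 16 and 7 to 10 were called lower. Same-numbered libraries did not deviate together (r from −0.027 to 0.05 over 9 pairs, and 1 of 9 libraries correlated best with its own number). The replicate block gave 16 members higher and 15 lower in C75 against DE, 22 and 10 in ETO against DE, and 14 and 21 in C75 against ETO, the same counts as without it. Members with few counts, SLC36A2, SLC38A3 and SLC38A4 among them, are limited by depth.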
